A study of Mus musculus with 13 samples.

Results

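The 38 genes described here carry out homologous recombination and the Fanconi anemia pathway. They were chosen as a written list of symbols, and all 38 matched a gene of the mouse annotation among the 57010 genes listed in each library. Every one of them passed the filter on low counts, which left 15034 genes to test.

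Homologous recombination repairs a broken chromosome by copying the sister chromatid. Nucleases first resect the broken end, BRCA1, PALB2 and BRCA2 then load the recombinase, its paralogs and motor proteins help the strand exchange, and helicases and nucleases resolve the joined molecules. The Fanconi pathway removes crosslinks between the strands of DNA: a core complex with FANCL and UBE2T attaches ubiquitin to FANCD2 and FANCI, and the repair then passes to recombination proteins. Both pathways work mainly in S and G2 phase, when a sister chromatid exists, and many of their genes are transcribed with the cell cycle.

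RNA of primary wild-type (WT) mouse embryonic fibroblasts (MEFs) was sequenced in 4 groups. Control MEFs were not made senescent. The other groups were made senescent with 2 μM etoposide, a topoisomerase inhibitor that breaks DNA, for 24 h, followed by 5 days of culture, and were either left untreated or treated for 12 h with Fucoidan-FV, at a dose of 100 μg/mL or of 300 μg/mL. Fucoidan-FV is a sulfated polysaccharide from the brown alga Fucus vesiculosus. In the labels each group holds mice 4, 5 and 6, which makes 3 mice per group. The libraries 5(1) and 5(2) both come from control mouse 5 and were summed. The labels give no strain or sex, and how many embryos a mouse number stands for is not given in the sources used here.

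The 13 libraries held 22782536 to 31278750 counts each, and mitochondrial genes took 0.698% to 1.02% of them. Each of the 10 fibroblast markers was counted in every group, and their summed level was at least 31846 CPM in every sample, where CPM is the count scaled by library size and TMM factor. The 10 macrophage markers summed to 0.564 to 4.63 CPM in control and 2.88 to 14.4 CPM in senescent MEFs, and the epithelial markers to at most 2.24 CPM in any sample. The endothelial markers summed to 23.5 to 62.0 CPM and the skeletal muscle markers to 68.2 to 362 CPM. The muscle sum was mostly Des and Acta1, while Myf5 had 0 counts and Myod1 and Myog at most 1 count in any sample. The neural markers, mostly Nes, summed to 586 to 1099 CPM in control and 645 to 1081 CPM in senescent MEFs, but to 220 to 250.2 CPM in the treated samples. That drop followed Nes, with counts of 18993 to 30408 in untreated senescent and 3405 to 4647 in treated samples. At each dose 4 of the 6 neural markers tested were higher than in untreated senescent MEFs. Map2 had 17 to 99 counts in untreated senescent and 451 to 695 in treated samples. The part of these markers in the results was not tested. Libraries differed in their counts on single-transcript genes, those of which nearly all sequence is found in 1 transcript. Control mouse 6, library 5(1), senescent mouse 5 and mouse 4 at 300 μg/mL were low in such genes, with median log2 deviations of −1.44, −1.11, −0.74 and −0.92 from the mean over the libraries. The highest deviations were those of mice 4 and 5 at 100 μg/mL, 0.92 and 1.03, and that group had no such low library. Calls between senescent and control MEFs that change without the low libraries are given with that value.

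Control MEFs transcribed most of these genes at a low to moderate level. On the TPM scale, which the authors' program corrected for transcript length, the median mean level of the 38 genes was 6.75 TPM in control MEFs and 1.5 TPM in senescent MEFs. The highest in control MEFs were Fance (35.5 TPM), Fanca (25.3 TPM) and Mus81 (19.8 TPM), and the lowest was Bard1 (0.427 TPM). In control MEFs 3 of the genes were under 1 TPM and 14 over 10 TPM, whereas in senescent MEFs 17 were under 1 TPM and 6 over 10 TPM. The highest in senescent MEFs was Mus81, at 38.6 TPM.

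Senescent MEFs had less recombination and Fanconi RNA than control MEFs. The summed level of the 38 genes was 609 ± 30.5 CPM in control MEFs (SD, n = 3, 575 to 631) and 298 ± 16.1 CPM in senescent MEFs (288 to 317). DEGs were genes whose adjusted p was under 0.05 and whose fold change, on the log2 scale (log2 change), was over 1 in size. In senescent against control MEFs 19 of the 38 genes (50%) were DEGs that fell and 0 were DEGs that rose, where 3.95% of all genes tested fell and 4.47% rose. The other 19 were not DEGs. The direction of the 19 falls was the same in 3 of 3 mice. The log2 change was below 0 for 34 of the 38 genes, against 45.8% of all genes tested, and its median was −2.11, against 0.07 over all genes tested. Senescent and control values were fully apart for 26 genes that were lower and 2 that were higher in senescent MEFs (Mus81 and Rad51d), where 12.9% and 14.2% of all genes tested did not overlap. In bulk RNA, fewer cells that transcribe a gene and less of its RNA per cell cannot be told apart.

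**Figure D1:**
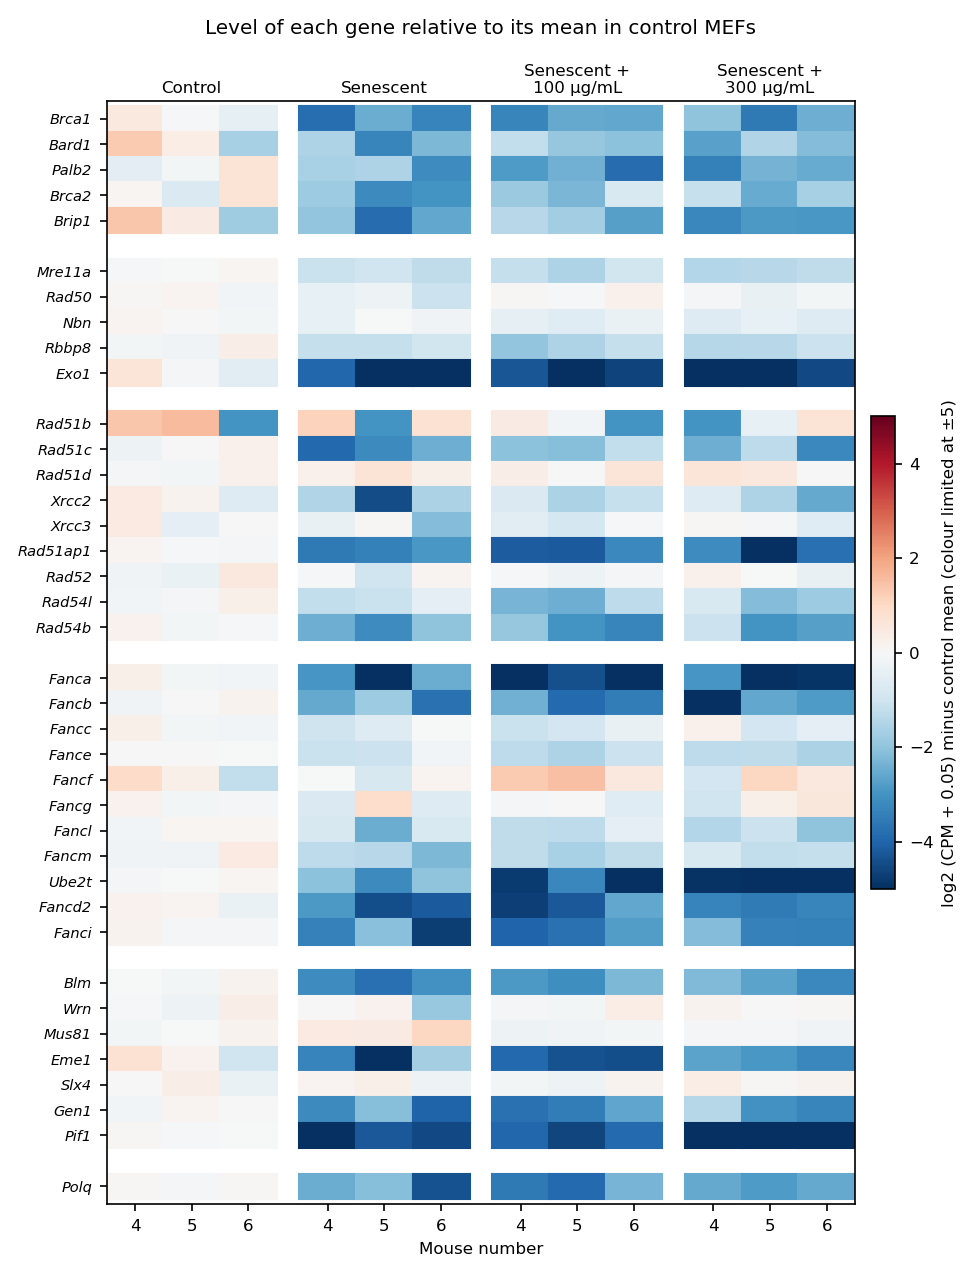
Level of each of the 38 genes in the 12 samples (columns, by group and mouse number), as log2 of CPM plus 0.05 minus the mean of the gene in control MEFs, with colour limited at ±5 and genes grouped by role. Most rows turn blue (lower) from control to senescent MEFs and stay so at both Fucoidan-FV doses, while rows such as Slx4 and Mus81 stay near white or turn red.

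The S phase and mitosis genes of these cells fell at the same time. Of 25 S phase genes 24 were DEGs that fell (median log2 change −2.74), and their summed level was 1572 to 2049 CPM in control and 243 to 380 CPM in senescent MEFs. All 20 mitosis genes were DEGs that fell (median −3.98). The part of these cell cycle differences in the fall of the recombination and Fanconi genes was not tested.

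Promoters of the genes that fell were examined because these genes moved together and because E2F, the transcription factor of S phase genes, binds a known motif. RefSeq windows on GRCm38.p6, from 250 bases before to 50 after the start of the gene, were found for 28 of the 38 genes. The files were aligned to another build, GRCm39, so coordinates of the windows are not those of the gene positions given below. The words searched for E2F on both strands were TTCCCGC, the variant TTGGCGC, the variant TTGCCGC and also TTCGCGC, and windows of 15 of the 28 genes (53.6%) held at least 1 of them. The share was 19.1% among 10859 genes tested that have a window and 10.9% among all 27025 genes that have one. Of 14 genes that fell 10 held the letters (71.4%), and of the 14 others 5 did (35.7%). CCAAT can overlap the E2F letters where GCGCCAA is followed by T. It was in windows of 60.7% of these genes and of 43% of the genes tested. The letters TTTGAA or TTCGAA of the cell cycle homology region were in windows of 17.9% and 16.5%. These matches are letters in a window and not measured binding sites.

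Stretches before the start of 5 genes that fell and of 1 that was not a DEG (Fancg) are shown to let the E2F letters be read in place. Each is written 5′ to 3′ on the strand of the gene, with the matched letters in capitals. The stretch of Blm is chr7:80535041-80535160 on the minus strand, that of Fancm chr12:65075483-65075602 on the plus strand, that of Brca2 chr5:150522433-150522552 on the plus strand, that of Rad51c chr11:87404955-87405042 on the minus strand, that of Fancb chrX:164980400-164980519 on the plus strand and that of Fancg chr4:43010302-43010381 on the minus strand.
Blm: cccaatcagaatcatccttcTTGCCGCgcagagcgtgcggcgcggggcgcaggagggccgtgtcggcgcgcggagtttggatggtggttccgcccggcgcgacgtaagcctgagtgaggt
Fancm: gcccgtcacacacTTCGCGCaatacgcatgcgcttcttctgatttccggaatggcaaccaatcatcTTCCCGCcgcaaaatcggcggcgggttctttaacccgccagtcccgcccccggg
Brca2: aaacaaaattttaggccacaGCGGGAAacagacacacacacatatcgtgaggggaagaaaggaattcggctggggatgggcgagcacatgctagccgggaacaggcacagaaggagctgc
Rad51c: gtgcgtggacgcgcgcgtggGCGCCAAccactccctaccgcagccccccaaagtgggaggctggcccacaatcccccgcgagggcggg
Fancb: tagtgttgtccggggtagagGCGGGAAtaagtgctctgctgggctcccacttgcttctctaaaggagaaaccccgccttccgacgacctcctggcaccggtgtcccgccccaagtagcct
Fancg: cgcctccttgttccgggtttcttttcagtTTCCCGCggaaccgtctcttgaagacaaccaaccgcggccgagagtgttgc
Fancm holds 2 such words, 107 and 54 bases before the start, and Rad51c holds 1 of its 3 in the stretch shown. Fancg holds the same letters as Fancm and was at 7.74 ± 1.06 CPM in control and 8.01 ± 5.61 CPM in senescent MEFs.

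**Figure D2:**
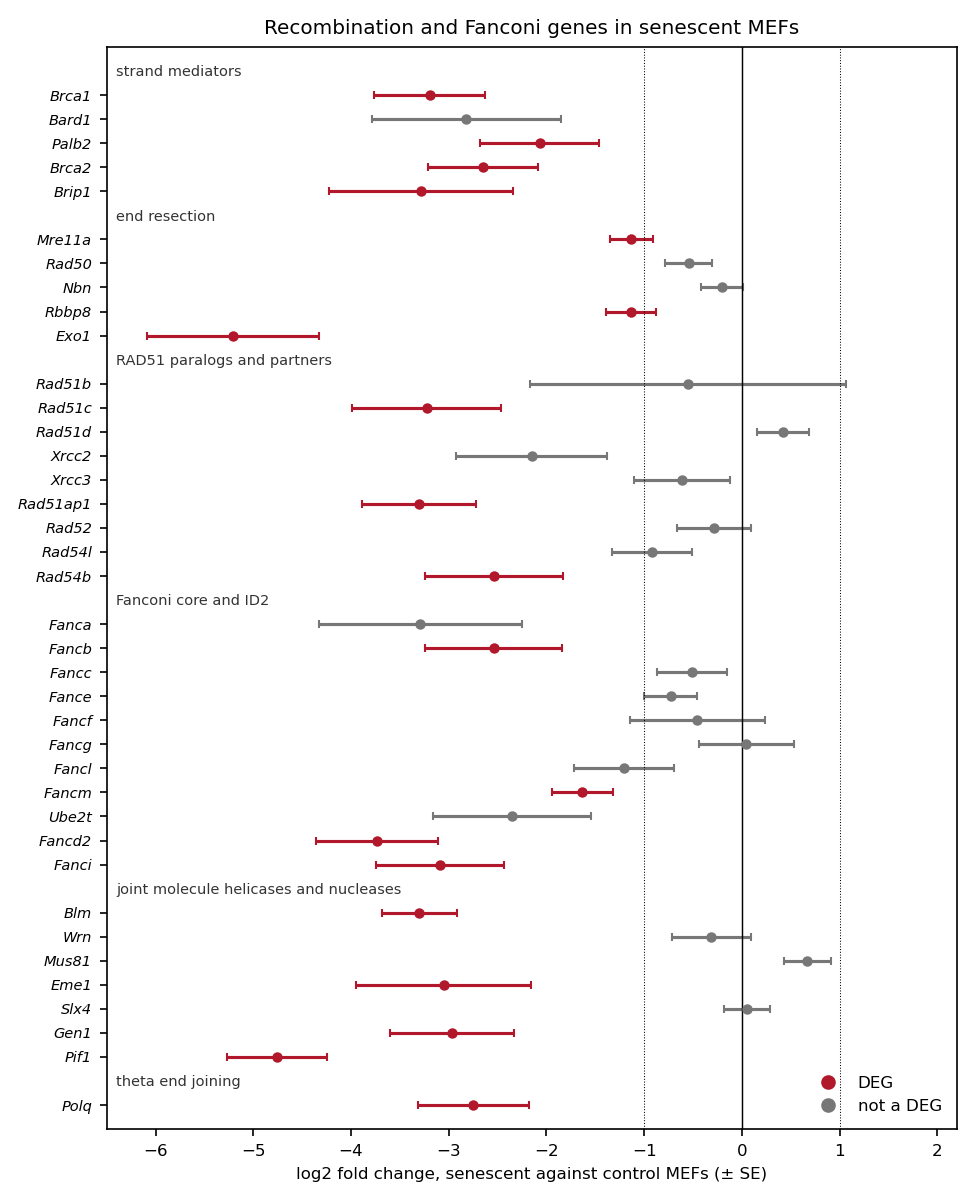
Log2 change of each of the 38 genes in senescent against control MEFs, as points with bars of 1 standard error (SE), grouped by role, with dotted lines at −1 and 1. The 19 DEGs (red) all lie below −1, from Exo1 at −5.21 to Mre11a and Rbbp8 at −1.13, and the genes that were not DEGs (grey) run from Fanca at −3.29 to Mus81 at 0.67.

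Of the 5 genes that load the recombinase onto resected DNA, 4 were DEGs that fell. Their summed level was 30.4 to 47.5 CPM in control and 4.35 to 8.79 CPM in senescent MEFs, so the groups did not overlap. Brca1 (ENSMUSG00000017146, chromosome 11 of GRCm39, 101379577 to 101442781), which directs breaks to recombination, was at 14.1, 9.52 and 7.38 CPM in control mice 4, 5 and 6 and at 0.671, 1.77 and 0.951 CPM in senescent ones. Each senescent value lay far below every control value, and the log2 change was −3.20 (SE 0.57, adjusted p = 0.00274). Brca2, which binds the recombinase directly, was at 18.8, 10.2 and 27.8 CPM in control and at 4.99, 1.90 and 2.14 CPM in senescent MEFs. The values did not overlap, although control mice differed among themselves, and the log2 change was −2.65 (SE 0.56, adjusted p = 0.00823). Without the libraries low in single-transcript genes the fall of Brca2 was −1.91 with an adjusted p of 0.0889.

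Palb2, the bridge between BRCA1 and BRCA2, was at 4.89, 6.40 and 11.4 CPM in control and at 2.27, 2.37 and 0.748 CPM in senescent MEFs. The highest senescent value was below the lowest control value (log2 change −2.07, SE 0.61, adjusted p = 0.0422). The call rested on most samples, since it was kept in 2 of the 12 fits that each left out 1 sample, those without mouse 6 at 100 μg/mL or mouse 4 at 300 μg/mL, and the adjusted p was 0.0559 to 0.145 without any 1 of the other 10. With the mouse as a block it was 0.0674, and without the libraries low in single-transcript genes the fall was −1.75 with an adjusted p of 0.143. Brip1, a helicase partner of BRCA1, was at 5.01, 2.51 and 0.517 CPM in control and at 0.447, 0.0862 and 0.272 CPM in senescent MEFs. Control mouse 6 lay just above the highest senescent value, and the log2 change was −3.28 (SE 0.94, adjusted p = 0.0384). Brip1 was a DEG in 3 of the 12 fits, those without control mouse 6, mouse 6 at 100 μg/mL or mouse 4 at 300 μg/mL, with an adjusted p of 0.0547 to 0.187 in the other 9, and of 0.069 with the block.

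Bard1, the obligate partner of BRCA1, was not a DEG. It was at 3.27, 1.71 and 0.376 CPM in control and at 0.415, 0.0862 and 0.238 CPM in senescent MEFs, so that control mouse 6 lay within the senescent values. Its log2 change was −2.82 (SE 0.96, adjusted p = 0.0781), and −3.27 with an adjusted p of 0.0349 without control mouse 6. Without all libraries low in single-transcript genes it was −3.25 with an adjusted p of 0.0258. The whole sequence of Bard1 and 96.1% of that of Brip1 occur in a single transcript, the kind of sequence in which control mouse 6 was low, and the part of this in their spread was not tested.

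Of the 5 genes of end resection 3 were DEGs that fell, and their levels in senescent MEFs ranged from a small fraction to nearly all of the control level. Exo1 (ENSMUSG00000039748, chromosome 1, 175708143 to 175741055), the exonuclease of long resection, was at 13.7, 8.26 and 5.97 CPM in control and at 0.511, 0.0431 and 0.170 CPM in senescent MEFs. This was the largest fall among the 38 genes, 36.9-fold, with a log2 change of −5.21 (SE 0.88, adjusted p = 0.00207).

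MRE11, RAD50 and NBN form the complex that senses broken ends and 1 of the 3 genes was a DEG, while differences among them were not tested. Mre11a, the nuclease, was at 38.9, 39.8 and 43.6 CPM in control and at 18.9, 20.3 and 16.6 CPM in senescent MEFs. Both groups were tight and far apart (log2 change −1.13, SE 0.22, adjusted p = 0.00502), and without the libraries low in single-transcript genes the fall was −0.96 with an adjusted p of 0.0526. Rad50 (28.8 ± 2.89 against 19.8 ± 5.45 CPM, log2 change −0.54, adjusted p = 0.178) and Nbn (29.5 ± 2.65 against 25.6 ± 3.58 CPM, −0.20, adjusted p = 0.62) did not pass the test. Rbbp8, which encodes the CtIP protein that starts resection with this complex, was at 37.5, 35.9 and 52.2 CPM in control and at 18.3, 17.9 and 21.1 CPM in senescent MEFs. Its values did not overlap and the log2 change was −1.13 (SE 0.26, adjusted p = 0.0118), but it was smaller than the threshold of 1 without control mouse 6 (−0.93, adjusted p = 0.0243) and with an offset for single-transcript share and length (−0.85, adjusted p = 0.0431). The call was also lost without the libraries low in single-transcript genes (−0.69, adjusted p = 0.194).

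Among 9 paralogs and partners of the recombinase 3 were DEGs that fell. Of the classical paralogs Rad51c was a DEG and Rad51b, Rad51d, Xrcc2 and Xrcc3 were not. Rad51c, a member of both paralog complexes, was at 2.59, 3.16 and 3.76 CPM in control and at 0.160, 0.302 and 0.544 CPM in senescent MEFs. All control values lay well above all senescent values (log2 change −3.23, SE 0.76, adjusted p = 0.0148), although without senescent mouse 4 the adjusted p was 0.0563, and 0.0539 without the libraries low in single-transcript genes. Rad51d was at 12.7, 12.4 and 16.2 CPM in control and at 16.2, 22.2 and 16.9 CPM in senescent MEFs, with a log2 change of 0.42 (SE 0.27, 95% interval −0.16 to 1.00, adjusted p = 0.373). Xrcc2 fell short of the threshold with a log2 change of −2.15 (4.14 ± 1.46 against 0.921 ± 0.686 CPM, adjusted p = 0.0929), and passed it without the libraries low in single-transcript genes (−2.00, adjusted p = 0.0491). Xrcc3 had a log2 change of −0.61 (adjusted p = 0.496). Rad51b was listed at 0 in 1 mouse of every group and at up to 1.14 CPM in the others, which gave a 95% interval of −4.03 to 2.92.

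The partners that fell were Rad51ap1 and Rad54b. Rad51ap1, which stimulates strand pairing, was at 15.7, 13.7 and 13.2 CPM in control and at 1.15, 1.29 and 1.87 CPM in senescent MEFs. The spread within each group was small beside the distance between them (log2 change −3.30, SE 0.58, adjusted p = 0.00266). Rad54b, a motor protein on DNA, was at 4.89, 3.87 and 4.04 CPM in control and at 0.735, 0.431 and 1.02 CPM in senescent MEFs. These groups did not overlap either (log2 change −2.54, SE 0.70, adjusted p = 0.0332), but the call was lost without control mouse 4 (adjusted p = 0.092) or 5 (0.0685), without senescent mouse 4 (0.0921) or 5 (0.0936), and without mouse 5 at 100 μg/mL (0.0511). Its relative Rad54l had higher levels, 28.4 ± 5.33 CPM in control and 15 ± 4.53 CPM in senescent MEFs, and a log2 change of −0.92 (SE 0.41, adjusted p = 0.174) that did not pass the test. Rad52, a strand annealing protein, had one of −0.29 (95% interval −1.10 to 0.53, adjusted p = 0.714).

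In the Fanconi pathway 4 of 11 genes were DEGs that fell, among them both substrates of ubiquitination. Fancd2 (ENSMUSG00000034023, chromosome 6, 113508412 to 113573982), which is ubiquitinated at crosslinks, was at 17.6, 16.7 and 11.9 CPM in control and at 2.01, 0.647 and 0.781 CPM in senescent MEFs. Its partner Fanci was at 15.1, 12.5 and 12.5 CPM in control and at 1.21, 3.06 and 0.442 CPM in senescent MEFs. Neither gene had overlapping groups, and the log2 changes were −3.73 (SE 0.63, adjusted p = 0.0019) for Fancd2 and −3.09 (SE 0.66, adjusted p = 0.0082) for Fanci. Fancm, the DNA translocase that anchors the core complex, was at 28.0, 28.1 and 45.2 CPM in control and at 13.3, 12.5 and 6.83 CPM in senescent MEFs. The groups were apart here too (log2 change −1.63, SE 0.31, adjusted p = 0.00434), and without the libraries low in single-transcript genes the adjusted p was 0.0606.

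Fancb, a core subunit, was at 9.26, 10.8 and 12.2 CPM in control and at 1.79, 3.02 and 0.748 CPM in senescent MEFs. The distance between the groups exceeded the spread within them (log2 change −2.54, SE 0.70, adjusted p = 0.0323). The call did not hold without control mouse 4, 5 or 6 (adjusted p = 0.0748, 0.0846 and 0.0731), without senescent mouse 4 or 6 (0.109 and 0.0846), or with the mouse as a block (0.0539).

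The remaining core genes were not DEGs. Fanca was at 32.6, 24.2 and 23.4 CPM in control and at 3.42, 0 and 4.72 CPM in senescent MEFs, a 9.78-fold lower level whose adjusted p was 0.0575, and 0.0446 without senescent mouse 5, the sample at 0. Without the libraries low in single-transcript genes, which include that sample, the log2 change was −2.71 with an adjusted p of 0.0258. Fance was at 38.9, 38.4 and 37.7 CPM in control and at 17.8, 18.0 and 33.5 CPM in senescent MEFs. Senescent mouse 6 stood nearest the control values, and the log2 change of −0.73 (adjusted p = 0.106) became −1.09 (adjusted p = 0.00325) without it. Fancl (−1.20, adjusted p = 0.157), Fancc (−0.51, adjusted p = 0.421), Fancf (−0.46, adjusted p = 0.757) and Fancg (0.05, adjusted p = 0.972) also did not pass, of which Fancl shares 44.8% of its exonic bases with Vrk2 on the opposite strand. Ube2t, the ubiquitin-conjugating enzyme of the pathway, was at 6.93, 7.30 and 8.04 CPM in control and at 1.76, 0.776 and 1.80 CPM in senescent MEFs, without overlap. Its log2 change was −2.35 (SE 0.81) with an adjusted p of 0.0783, and 0.00498 with DESeq2.

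Of 7 helicases and nucleases that take apart joined DNA molecules 4 were DEGs that fell. Blm (ENSMUSG00000030528, chromosome 7, 80104481 to 80184899), the helicase that dissolves double Holliday junctions, was at 25.6, 23.9 and 29.3 CPM in control and at 2.94, 1.85 and 3.16 CPM in senescent MEFs. It had the lowest adjusted p of the 38 genes (log2 change −3.30, SE 0.38, adjusted p = 0.000178). Its relative Wrn was at 23.6, 20.3 and 30.6 CPM in control and at 24.7, 28.7 and 6.52 CPM in senescent MEFs, so that 2 senescent mice lay within the control values and mouse 6 far below (log2 change −0.31, SE 0.41, adjusted p = 0.709).

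Gen1, a nuclease that cuts Holliday junctions, was at 11.3, 13.7 and 12.9 CPM in control and at 1.34, 2.80 and 0.714 CPM in senescent MEFs. The groups lay apart (log2 change −2.97, SE 0.63, adjusted p = 0.00807). Pif1 (ENSMUSG00000041064, chromosome 9, 65494442 to 65503249), a helicase that works at telomeres and in DNA synthesis during recombination, was at 16.4, 15 and 15.6 CPM in control and at 0.320, 0.776 and 0.646 CPM in senescent MEFs. It fell 27-fold, with a log2 change of −4.76 (SE 0.51, adjusted p = 0.000204). Polq, the polymerase of theta-mediated end joining, an alternative route for resected ends, was at 15.6, 13.9 and 15.7 CPM in control and at 2.65, 3.41 and 0.680 CPM in senescent MEFs. All senescent values were far below the control values (log2 change −2.75, SE 0.57, adjusted p = 0.00693).

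Mus81 and Eme1 encode the subunits of 1 nuclease, and the difference between these genes was not tested. Eme1 was at 6.88, 4.69 and 2.02 CPM in control and at 0.352, 0.0431 and 1.22 CPM in senescent MEFs (log2 change −3.05, SE 0.89, adjusted p = 0.0418). Mus81 (ENSMUSG00000024906, chromosome 19, 5532373 to 5538448), the catalytic subunit, was at 14.2, 15.5 and 17.7 CPM in control and at 21.5, 21.1 and 32.8 CPM in senescent MEFs. Every senescent value of Mus81 was above every control value, but the log2 change of 0.67 (SE 0.24, 95% interval 0.14 to 1.19, adjusted p = 0.0981) was no DEG. The call of Eme1 was kept in 3 of the 12 fits that each left out 1 sample, those without control mouse 6, senescent mouse 6 or mouse 4 at 300 μg/mL. The adjusted p was 0.0522 to 0.15 in the other 9 and 0.0794 with the block, and 44.6% of the exonic bases of Eme1 are shared with Lrrc59 on the opposite strand. Slx4, the scaffold to which MUS81 and EME1 bind, was at 35.1, 43.5 and 28.0 CPM in control and at 38.9, 42.3 and 29.4 CPM in senescent MEFs, with a log2 change of 0.05 (SE 0.23, 95% interval −0.45 to 0.55, adjusted p = 0.93).

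**Figure D3:**
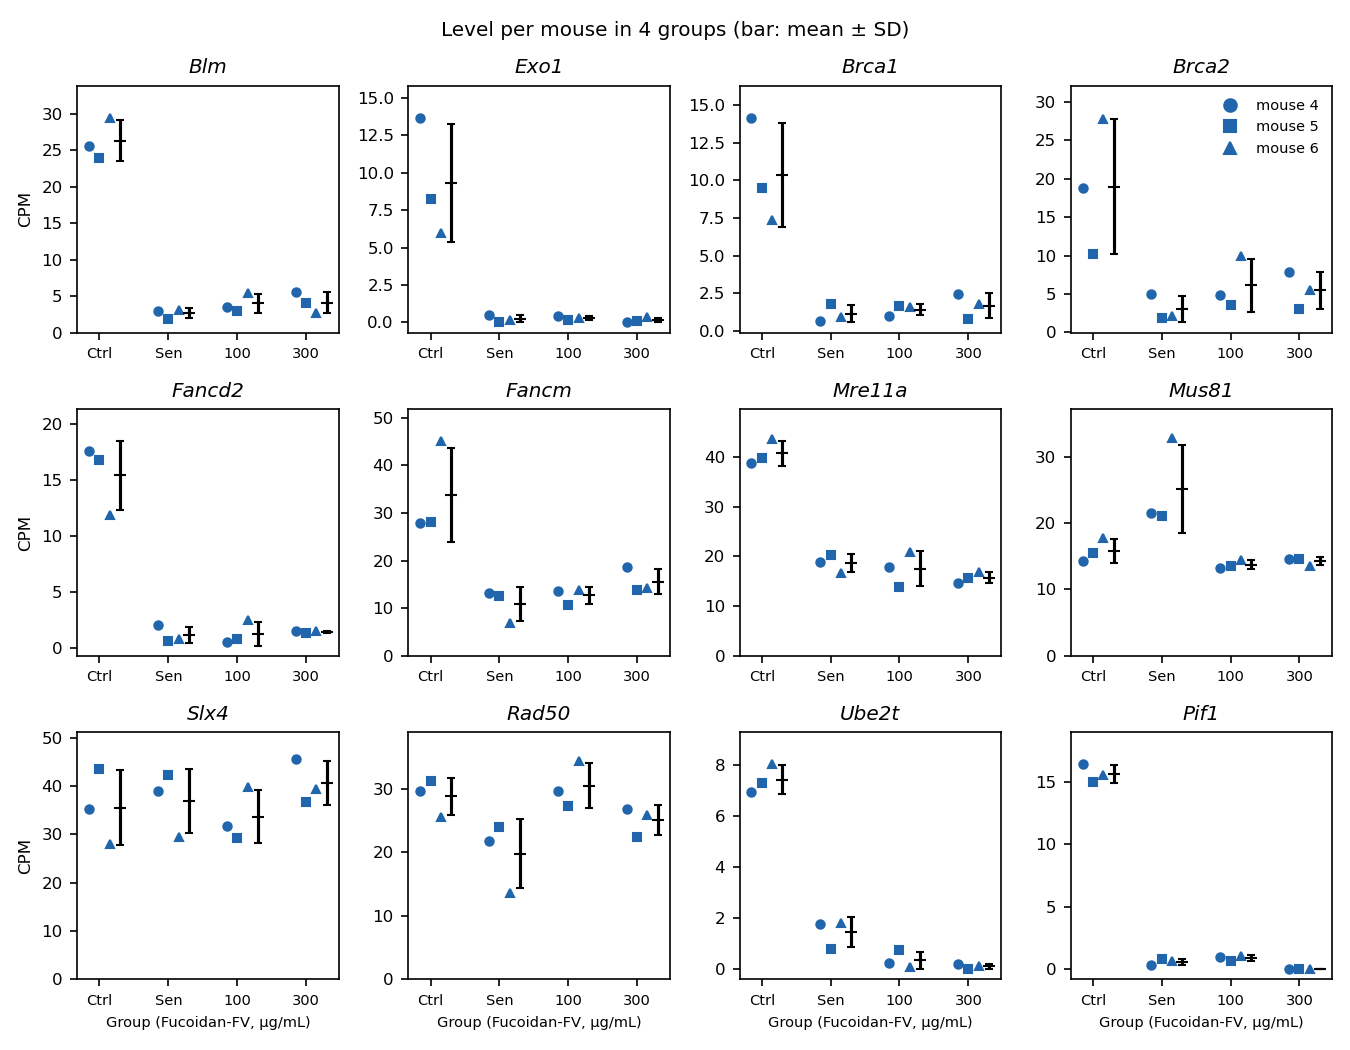
Level in CPM (vertical axes, from 0) of 12 genes in control (Ctrl) and untreated senescent (Sen) MEFs and in senescent MEFs with 100 or 300 μg/mL Fucoidan-FV, with 1 symbol per mouse and a bar for the mean ± SD of 3 mice. Blm, Exo1, Brca1, Fancd2 and Pif1 drop in senescent MEFs and stay low at both doses, Slx4 stays in 1 range, and Mus81 is highest in untreated senescent MEFs.

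Some of these falls depended less on single samples than others. Of the 19 DEGs, 12 were called in each of the 12 fits that left out 1 sample, namely Blm, Brca1, Brca2, Exo1, Fancd2, Fanci, Fancm, Gen1, Mre11a, Pif1, Polq and Rad51ap1. Over all 24 alternatives 9 were called wherever they were tested, which are the same genes without Brca2, Fancm and Mre11a. With the mouse as a block 15 of the 38 genes were DEGs, and without the libraries low in single-transcript genes 16 were. The latter fit lost Brca2, Fancm, Mre11a, Palb2, Rad51c and Rbbp8 and gained Bard1, Fanca and Xrcc2. DESeq2 called 22, the same 19 with Bard1, Ube2t and Xrcc2.

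Fucoidan-FV was given to ask what it changes in senescent MEFs, and for these genes the answer was mostly no detectable difference from untreated senescent MEFs. The summed level was 274 ± 44.4 CPM at 100 μg/mL (SD, n = 3, 239 to 324) and 290 ± 29.6 CPM at 300 μg/mL (271 to 324), which overlaps the untreated senescent values. At 100 μg/mL 0 of the 38 genes were DEGs with edgeR, where 1.1% of all genes tested rose and 1.6% fell as DEGs. DESeq2 also called 0. An unadjusted p under 0.05 with edgeR was found for 4 genes. The share of all genes tested under that limit is not given here, so this number cannot be judged against it. With 17 genes above and 21 below 0 (51.1% of all genes tested were below 0), the median log2 change was −0.11 (−0.02 over all genes tested). At 300 μg/mL 1 gene, Pif1, was a DEG that fell, where 0.885% of all genes tested fell and 0.752% rose as DEGs. An unadjusted p under 0.05 was found for 4 genes, again without a share over all genes beside it. The median at that dose was 0.07, with 20 genes above and 18 below 0 (49.9% of all genes tested), against 0.00 over all genes tested. Treated and untreated values were fully apart for 3 genes that were higher and 3 that were lower at 100 μg/mL (11.2% and 15% of all genes tested), and for 1 higher and 4 lower at 300 μg/mL (9.41% and 10.2%).

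These tests left room for moderate changes. The 95% interval of the log2 change held 0 for 34 of the 38 genes at each dose, and its median width was 2.32 at 100 μg/mL and 2.34 at 300 μg/mL. It held 1, a doubling, for 18 genes at the lower and 22 at the higher dose. Blm and Brca2, both DEGs that fell in senescent MEFs, were examples of this. Blm was at 3.57, 2.99 and 5.43 CPM at 100 μg/mL and at 5.58, 4.05 and 2.74 CPM at 300 μg/mL, against 2.94, 1.85 and 3.16 CPM without treatment. These values overlapped, and the log2 changes were 0.59 (95% interval −0.19 to 1.36, adjusted p = 0.397) and 0.63 (−0.14 to 1.41, adjusted p = 0.446). Brca2 was at 4.85, 3.52 and 9.96 CPM at 100 μg/mL (log2 change 1.02, 95% interval −0.15 to 2.18, adjusted p = 0.325) and at 7.87, 3.02 and 5.47 CPM at 300 μg/mL (0.85, adjusted p = 0.509).

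For other strongly lowered genes no difference from the untreated senescent level was detected. Brca1 was at 1.41 ± 0.382 CPM at 100 μg/mL and 1.67 ± 0.836 CPM at 300 μg/mL, against 1.13 ± 0.57 CPM in untreated senescent MEFs (log2 changes 0.32 and 0.57, adjusted p = 0.8 and 0.695). Fancd2 was at 1.25 ± 1.05 and 1.42 ± 0.118 CPM, against 1.15 ± 0.753 CPM (0.11 and 0.29, adjusted p = 0.942 and 0.878). Exo1 was at 0.290 ± 0.129 and 0.159 ± 0.153 CPM, against 0.241 ± 0.242 CPM (0.23 and −0.64, adjusted p = 0.914 and 0.804). These differences stayed within the spread between mice, and Exo1 rested on 16, 1 and 5 counts in untreated senescent mice 4, 5 and 6.

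**Figure D4:**
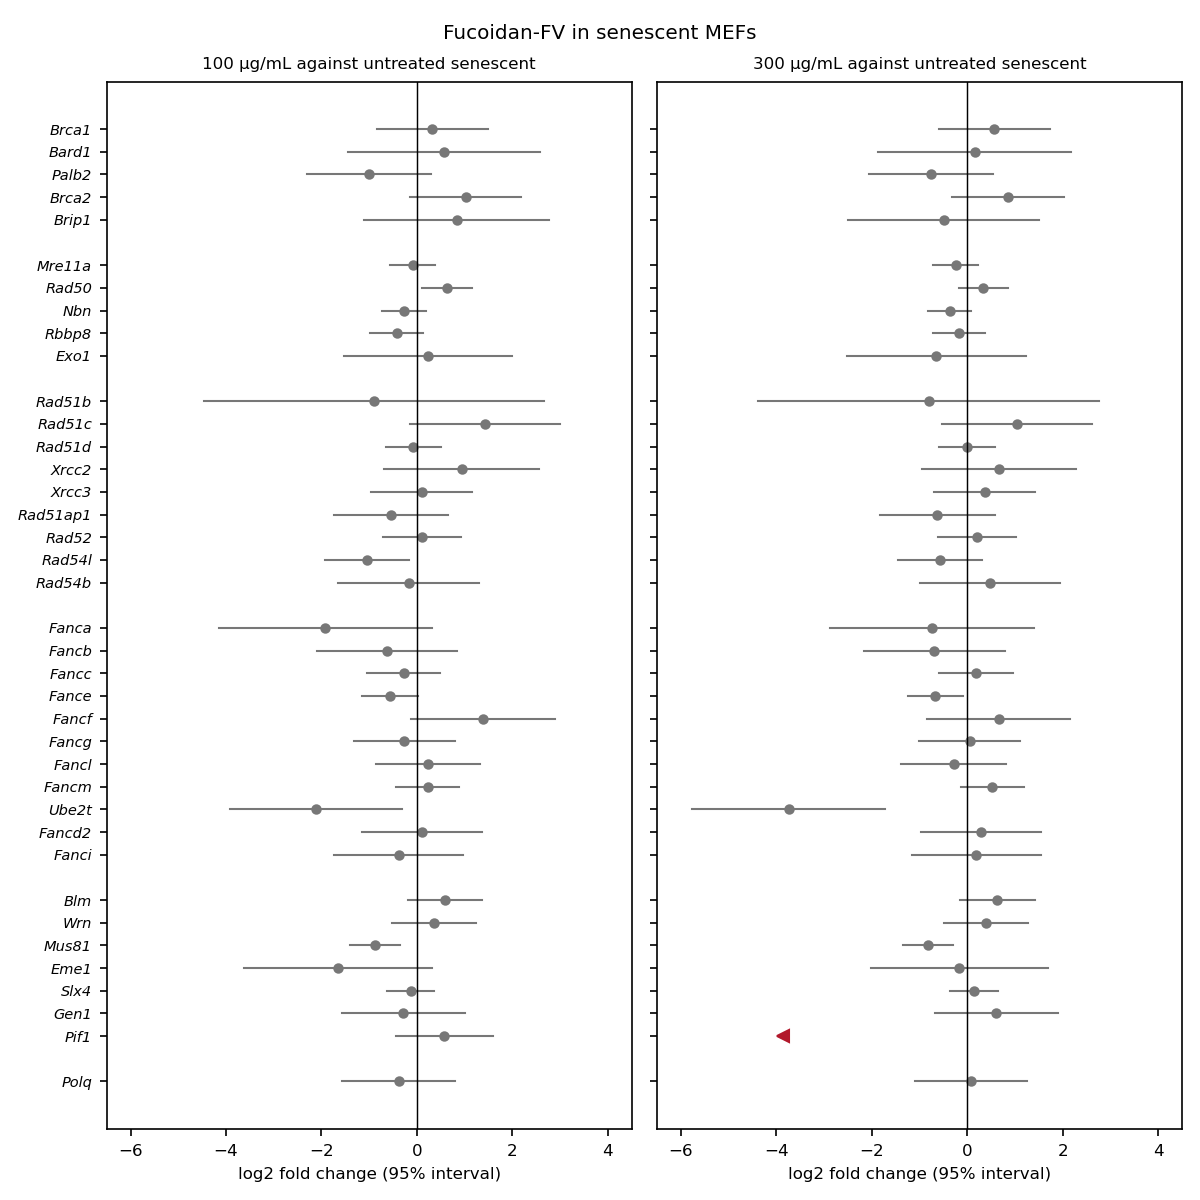
Log2 change of each of the 38 genes at 100 μg/mL (left) and 300 μg/mL (right) Fucoidan-FV against untreated senescent MEFs, with 95% intervals as lines, DEGs in red and other genes in grey. The red triangle of Pif1 at 300 μg/mL, where it had no count, marks the bound of at least 14.6-fold lower, and 34 intervals in each panel hold 0.

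The genes whose values at 100 μg/mL lay fully apart from those of untreated senescent MEFs were Rad50, Rad51c and Fancf, which were higher, and Mus81, Rad54l and Ube2t, which were lower, and none of them was a DEG. Mus81 was at 13.2, 13.6 and 14.5 CPM at 100 μg/mL and at 14.7, 14.6 and 13.6 CPM at 300 μg/mL. All 6 treated values were below the 3 untreated senescent values and near the control values of 14.2 to 17.7 CPM. The log2 change was −0.87 at 100 μg/mL (SE 0.24, adjusted p = 0.0621) and at 300 μg/mL it was −0.82 (SE 0.24, adjusted p = 0.113), both from the same senescent samples, and against control MEFs the log2 changes were −0.20 (adjusted p = 0.571) and −0.15 (adjusted p = 0.709). Rad50 was at 29.7, 27.4 and 34.3 CPM at 100 μg/mL, above every untreated senescent value (log2 change 0.62, 95% interval 0.10 to 1.14, adjusted p = 0.169). Rad51c was at 0.720, 0.681 and 1.31 CPM at that dose (1.42, 95% interval −0.14 to 2.99, adjusted p = 0.304). Fancf was at 3.19, 3.75 and 1.83 CPM, against 1.25, 0.690 and 1.39 CPM without treatment (1.39, 95% interval −0.12 to 2.90, adjusted p = 0.295), and its whole sequence occurs in a single transcript. Rad54l was at 5.57, 5.15 and 11.2 CPM at the same dose, below every untreated senescent value (−1.04, SE 0.41, adjusted p = 0.175). Mus81, Rad50 and Rad54l were not DEGs in any of the 24 alternatives against untreated senescent MEFs.

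Ube2t (ENSMUSG00000026429, chromosome 1, 134890275 to 134903457) had its lowest values with treatment. It was at 0.219, 0.719 and 0.0692 CPM at 100 μg/mL and at 0.194, 0 and 0.124 CPM at 300 μg/mL, each below every untreated senescent value. Against untreated senescent MEFs the log2 change was −2.11 at 100 μg/mL (SE 0.84, adjusted p = 0.178) and at 300 μg/mL −3.74 (SE 0.94, adjusted p = 0.0631), so that it was no DEG. At 300 μg/mL it was a DEG with DESeq2 (adjusted p = 0.000537), without a filter on low counts (0.00327), with the offset for single-transcript share and length (0.0397) and without mouse 6 at 100 μg/mL (0.0466). Of its sequence 83% occurs in a single transcript.

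Pif1 had the clearest difference at the higher dose. Its counts were 10, 18 and 19 in untreated senescent mice 4, 5 and 6, 31, 16 and 29 at 100 μg/mL, and 0 in all 3 mice at 300 μg/mL. With a floor of 3 counts over the group, the level at 300 μg/mL was at least 14.6-fold lower than in untreated senescent MEFs (adjusted p = 0.00463) and at least 403-fold lower than in control MEFs. The fall against untreated senescent MEFs was called in all 22 alternatives in which Pif1 was tested, with an adjusted p of up to 0.0479. At 100 μg/mL it was at 0.970, 0.606 and 1.00 CPM, overlapping the untreated senescent values (log2 change 0.58, adjusted p = 0.543). The floor of 3 counts covers counting error only, and no molecular identifiers are named in the sources used here.

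Between the doses Pif1 was the 1 DEG among the 38 genes and among all genes tested (0.00665%), at least 22.7-fold lower at 300 μg/mL (adjusted p = 0.0399). This call was lost with the mouse as a block (adjusted p = 0.378) and in 11 of the 12 fits that left out 1 sample (0.0643 to 0.248), and without the libraries low in single-transcript genes (0.846). The other 37 genes had an adjusted p of at least 0.97 between the doses with edgeR. Of the 38 genes 1, Pif1, had an unadjusted p under 0.05, without a share over all genes beside it.

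Against control MEFs the treated senescent MEFs had low levels of these genes. At 100 μg/mL 21 of the 38 genes were DEGs that fell and 0 rose (9.38% and 10.3% of all genes tested), and at 300 μg/mL 23 fell and 0 rose (8.11% and 9.87%). Without treated mouse 6 the number at 300 μg/mL was 15. The median log2 changes were −1.72 and −1.64. These comparisons use the same control samples as that of untreated senescent MEFs. Fanca, Fance, Rad54l and Ube2t, which were not DEGs in untreated senescent MEFs, were DEGs that fell at both doses against control MEFs. At 300 μg/mL the call of Fanca was lost without control mouse 4 (adjusted p = 0.0522) or mouse 5 or 6 of the treated group (0.0647 and 0.0684), and that of Rad54l without mouse 5 or 6 of the treated group (0.0769 and 0.079) or with library 5(2) alone for control mouse 5 (0.0553). Fance was at 15.5, 13.2 and 18.2 CPM at 100 μg/mL and at 15.4, 15.7 and 12.7 CPM at 300 μg/mL, all far below its control values of 37.7 to 38.9 CPM (log2 changes −1.29, adjusted p = 0.00359, and −1.39, adjusted p = 0.00253). Rad51c at 100 μg/mL (−1.80, adjusted p = 0.077) and Brip1 at 100 μg/mL (−2.45, adjusted p = 0.0616) were not DEGs against control MEFs. Without the libraries low in single-transcript genes, Brip1 (−3.05, adjusted p = 0.00592) and Bard1 (−2.97, adjusted p = 0.00781) were DEGs at 100 μg/mL. The same fit lost other calls against control MEFs. At 100 μg/mL these included Brca2 (−1.08, adjusted p = 0.17), Fancm (−0.82, adjusted p = 0.0833) and Mre11a (−0.90, adjusted p = 0.0209). At 300 μg/mL they included Brca2 (−1.64, adjusted p = 0.0839), Fancm (−0.73, adjusted p = 0.168) and Palb2 (−1.96, adjusted p = 0.0678).

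Cell cycle genes were also low with treatment. The S phase genes summed to 196 to 209 CPM at 100 μg/mL and 183 to 222 CPM at 300 μg/mL, against 243 to 380 CPM in untreated senescent MEFs. Of the S phase genes 1 (Mcm6, 4%) and of the mitosis genes 1 (Tpx2, 5%) were DEGs that fell at 100 μg/mL, against 1.6% of all genes tested. Tpx2 was also one at 300 μg/mL, where 0.885% of all genes tested fell. The part of these differences in the levels of the recombination and Fanconi genes was not tested.

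Other genes of the same pathways gave a more mixed picture. Of 45 further recombination and Fanconi genes 44 were tested. In senescent against control MEFs 14 of them (31.8%) fell as DEGs and 0 rose, where 3.95% of all genes tested fell and 4.47% rose. The median log2 change of the 44 genes was −0.31. The largest falls were those of Dna2 (−4.79, adjusted p = 0.000571), a resection nuclease, Hrob (−4.34, adjusted p = 0.0141), which recruits a helicase in recombination, and Recql4 (−4.25, adjusted p = 0.00942), a helicase. With treatment 1 of the 44 (2.27%) was a DEG that fell at each dose against untreated senescent MEFs, and 0 rose. Of all genes tested, 1.6% were DEGs that fell with the lower dose and 0.885% with the higher. A count of 1 gene is too small to set the list apart from these shares. The gene was Rpa1, a subunit of the protein that coats single-stranded DNA. Rpa1 was at 114, 141 and 169 CPM in untreated senescent mice 4, 5 and 6, at 62.2, 56.0 and 71.5 CPM at 100 μg/mL, and at 70.5, 65.2 and 66.9 CPM at 300 μg/mL. All treated values were well below the untreated ones, with a log2 change of −1.16 at 100 μg/mL (SE 0.18, adjusted p = 0.00542) and at 300 μg/mL of −1.07 (SE 0.18, adjusted p = 0.0103).

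The 2 libraries of control mouse 5 show how far these genes could differ within 1 mouse. Between them 6 of the 38 genes differed by more than 1 on the log2 scale. Library 5(2) was higher for Bard1 (log2 difference 2.49), Fancf (1.80) and Brip1 (1.45), whose sequence occurs wholly or nearly so in a single transcript, and lower for Ube2t (−1.55), Rad54l (−1.15) and Fancb (−1.01). The median over the 38 genes was −0.40. Their chi-square per gene was 150, above sampling noise, and that of the other pairs of control libraries was 53.9 to 159.

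**Figure D5:**
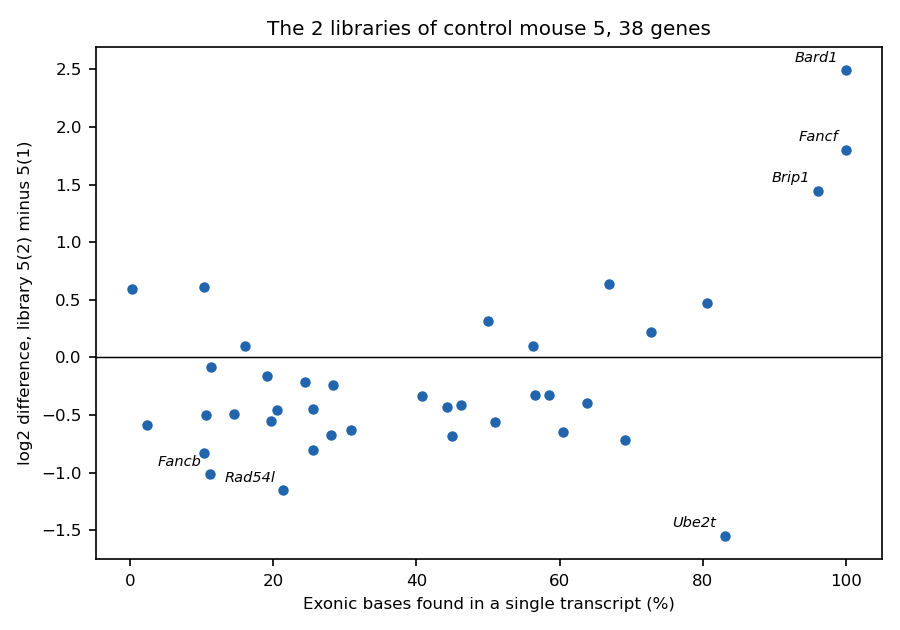
Log2 difference between the libraries 5(2) and 5(1) of control mouse 5 (vertical axis) for each of the 38 genes, against the percentage of its exonic bases that occur in a single transcript (horizontal axis). The 3 genes above 90%, Bard1, Fancf and Brip1, are the 3 highest points, at 1.45 to 2.49, and the median of all points is −0.40.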

How the data were processed

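RNA of MEFs in 4 groups of 3 mice was sequenced from total RNA with a stranded kit. According to the submitters' processing notes, FastQC 0.12.1, Trimmomatic, STAR 2.7.11b and RSEM 1.3.1 were used with GRCm39. The authors deposited expected counts per gene, which are estimated by RSEM and not normalized, and TPM values from the same run, which are scaled for length and library size. How strand was set in counting is not given in the sources used here, so genes that overlap on opposite strands are uncertain. Of the genes listed, 56310 of 57010 were matched to GENCODE release M39. The labels write Eo for untreated and Eto for treated senescent MEFs. They were taken as the same etoposide protocol.

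Expected counts were rounded and libraries 5(1) and 5(2) summed. The filter was filterByExpr with a minimum count of 10 and a minimum total of 15. Differences were tested in R 4.3.3 with the quasi-likelihood test of edgeR 4.0.16 with TMM factors, in 1 fit over 4 groups, with Benjamini-Hochberg adjustment over 15034 genes in each of 6 comparisons (two-sided). The test was also run on simulated counts, drawn from its own fitted means and spread without the library differences in single-transcript genes. Such counts cannot check the test against those differences. Fold changes, SE and adjusted p come from this test. TPM values were used only to describe levels, between genes and between control and senescent MEFs, and were not tested.

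The labels give samples of a number the same mouse, which was taken as pairing. The main fit held the group alone and did not use this pairing, which entered only where the mouse was a block. The deviations of same-numbered samples correlated with a median r of −0.006 (18 pairs, −0.204 to 0.425, 8 of them over 0.1). The study describes 3 independent biological replicates per group. Whether same-numbered samples of different groups came from separate cultures is not stated, so p-values measure the spread between these samples.

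The members, the marker lists and the other recombination genes were chosen with earlier results of these data known. Values in every sample are given for members that are DEGs between senescent and control MEFs, in a dose against senescent MEFs or between doses. Those of other genes were given after their values were seen. Promoter windows came from RefSeq. The entries for Rbbp8, Wrn, Fancd2, Rad51d, Pif1, Exo1, Xrcc2, Rad50, Nbn and Rad54b are missing in that table.

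The alternatives were DESeq2 1.42.0, RLE factors, other filters, a fit to the 2 compared groups alone, control mouse 5 by 1 of its libraries or by both apart, the mouse as a block, an offset for single-transcript share and length with and without the block, each sample left out in turn, and the adjusted p alone. Leaving out the 4 libraries low in single-transcript genes (median log2 deviation under −0.5) was added after the data were seen.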

Additional observations from a re-analysis of the deposited data

Results flagged for a closer look

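Pif1 differed between the doses of Fucoidan-FV: its counts were 76 in all at 100 μg/mL and 0 at 300 μg/mL, an adjusted p of 0.0399 in the test of 300 against 100 μg/mL itself. It was lower in 3 of 3 mice. The call was absent with the mouse as a block (adjusted p = 0.378) and in 11 of the 12 fits that left out 1 sample (0.0643 to 0.248), and it was kept without senescent mouse 4 (0.0388). Among the 38 genes Pif1 was the 1 result that met a criterion for a closer look.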

How the results depend on the processing

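No DEG turned its direction in any of the 24 alternatives, whereas the sign of some log2 changes that were not DEGs turned (Eme1 at 300 μg/mL against untreated senescent MEFs, −0.81 to 1.26). In senescent against control MEFs 12 of 26 genes tested fell when at least 10 counts were required in every sample. At 100 μg/mL against untreated senescent MEFs 1 gene (Fanca, adjusted p = 0.0482) fell without a filter. At 300 μg/mL 2 genes fell with DESeq2, 2 without a filter and 2 with the offset (Ube2t beside Pif1), and 0 with at least 10 counts in every sample or in a fit of the 2 groups alone, where Pif1 was not tested. Between the doses 0 genes fell with at least 10 counts in every sample, in a fit of the 2 groups alone, with library 5(2) alone, without the libraries low in single-transcript genes, with the mouse as a replicate block, and with the block and the offset. At 300 μg/mL against control MEFs 15 genes fell with at least 10 counts in every sample. The block changed the calls named in the report, and at 300 μg/mL against control MEFs that of Rad51c (adjusted p = 0.061).

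Leaving out 1 sample gave 13 to 20 genes that fell in senescent against control MEFs, 1 to 2 at 300 μg/mL against untreated senescent MEFs, 0 to 1 between the doses, 19 to 21 at 100 μg/mL against control MEFs and 15 (without treated mouse 6) to 24 at 300 μg/mL against control MEFs. The cause of these differences was not tested. Genes under 1 CPM in senescent MEFs rest on few counts, which limits what can be said of their response to Fucoidan-FV.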
